A study of Mus musculus with 4 samples.

Results

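The 7 CDK inhibitor genes of the mouse were followed across 4 RNA-seq libraries of neural stem cells: Cdkn1a (p21), Cdkn1b (p27) and Cdkn1c (p57) of the Cip/Kip family, and Cdkn2a (p16Ink4a and p19Arf), Cdkn2b (p15), Cdkn2c (p18) and Cdkn2d (p19Ink4d) of the INK4 family. They were chosen by name, and their Entrez gene IDs picked 7 of the 17621 genes in the deposited tables. All 7 passed the minimum of a mean of 1 CPM (counts scaled to library size) over the 4 libraries, as did 12976 genes in all.

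The cells were primary neural stem cells cultured from newborn mouse cortex, and the study's title names the loss of the nucleoporin Seh1 during proliferation and differentiation as the question. The 4 libraries are 4 groups of 1 library each. The iKO library at day 3 has the genotype cmv-cre-ert,seh1 f/f and came from cells after EGF and bFGF had been withdrawn. The Ctrl library at day 3 has the genotype Seh1 f/f and the same medium. The iKO library at day 0 has the genotype cmv-cre-ert,seh1 f/f, and the Ctrl library at day 0 the genotype Seh1 f/f, both in growth medium with EGF and bFGF. All 4 thus carry floxed Seh1 alleles, and the Cre recombinase is named for iKO cells alone. The treatment that would activate the Cre, the number of animals and the age of the cultures were not stated in the labels.

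CDK inhibitors bind cyclin-dependent kinases and hold the cell cycle. The INK4 proteins bind CDK4 and CDK6 and keep D cyclins off them, while the Cip/Kip proteins bind whole cyclin and CDK complexes, above all those of CDK2. Cdkn1a is a classic target of the transcription factor p53, p27 and p57 are linked to cell cycle exit of neural precursors, and the Cdkn2a locus is held silent in neural stem cells by Polycomb proteins such as Bmi1.

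Cdkn1a and Cdkn2a each have a pair of start sites, and the transcript values below turn on which one was used. The windows around them run from 250 bases before to 50 bases after the start in RefSeq (GRCm38.p6), 5′ to 3′ on the gene's strand. In the first, capitals mark a 20-base p53 element of adjacent half-sites, which lies 51 to 32 bases before the start. In the second they mark an Sp1 motif, in the fourth an E2F motif, and the third holds none of the motifs searched.

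Cdkn1a, upstream start, chr17:29090729-29091028, plus strand: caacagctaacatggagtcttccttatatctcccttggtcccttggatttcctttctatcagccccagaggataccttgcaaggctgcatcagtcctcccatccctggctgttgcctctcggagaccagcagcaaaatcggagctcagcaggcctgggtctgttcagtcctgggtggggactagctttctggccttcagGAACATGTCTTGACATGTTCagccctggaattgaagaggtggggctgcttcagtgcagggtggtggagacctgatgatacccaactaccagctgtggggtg

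Cdkn1a, downstream start, chr17:29093519-29093818, plus strand: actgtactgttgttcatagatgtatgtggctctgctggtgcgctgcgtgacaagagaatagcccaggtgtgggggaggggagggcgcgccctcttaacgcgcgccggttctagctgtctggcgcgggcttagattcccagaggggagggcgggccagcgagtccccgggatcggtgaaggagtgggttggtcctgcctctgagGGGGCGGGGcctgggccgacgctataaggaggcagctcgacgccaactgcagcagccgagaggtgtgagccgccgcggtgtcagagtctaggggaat

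Cdkn2a, p16Ink4a start, chr4:89282143-89282442, minus strand: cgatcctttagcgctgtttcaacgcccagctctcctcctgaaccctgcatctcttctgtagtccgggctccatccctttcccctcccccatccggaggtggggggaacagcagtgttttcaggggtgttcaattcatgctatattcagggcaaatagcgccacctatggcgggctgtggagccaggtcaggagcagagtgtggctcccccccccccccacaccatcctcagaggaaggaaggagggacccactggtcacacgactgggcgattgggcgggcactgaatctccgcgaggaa

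Cdkn2a, p19Arf start, chr4:89294570-89294869, minus strand: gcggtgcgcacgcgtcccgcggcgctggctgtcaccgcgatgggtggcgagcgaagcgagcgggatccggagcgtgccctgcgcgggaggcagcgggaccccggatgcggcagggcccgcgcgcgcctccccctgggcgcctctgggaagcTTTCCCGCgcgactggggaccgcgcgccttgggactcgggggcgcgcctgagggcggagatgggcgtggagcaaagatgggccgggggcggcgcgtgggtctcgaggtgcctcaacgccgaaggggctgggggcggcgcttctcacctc

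The p53 element, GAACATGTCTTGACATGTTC, has 1 mismatch to the p53 consensus, outside its core letters. With at most 1 such mismatch, an element was found in 18 of 32851 windows of all genes, or 0.0548%. Of the 9 windows of 6 CDK inhibitor genes in the table, this one alone held such an element. An E2F motif (TTTCCCGC, TTTGGCGC, TTTCGCGC or TTTGCCGC) was in 1 of the 9 windows and in 2.26% of all. The Sp1 motif GGGGCGGGG was in 2 of the 9, those of the downstream Cdkn1a start and of Cdkn2b, and in 11.4% of all. The FOXO motif TGTTTAC was in 0 of the 9 and in 3.65% of all. Both strands were searched, and a motif describes letters in the window, not binding.

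The Cdkn2a starts lead to proteins that share no reading frame. Each first exon joins the same second exon (chr4:89276645-89276985, minus strand, GRCm38), which is read in frame 0 after the p16Ink4a exon and in frame 2 after the p19Arf exon. The junctions below show the last 30 bases of each first exon in lower case and the first 30 bases of the shared exon in capitals.

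p16Ink4a transcript, NM_001040654.1: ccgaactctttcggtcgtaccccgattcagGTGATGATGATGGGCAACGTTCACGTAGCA

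p19Arf transcript, NM_009877.2: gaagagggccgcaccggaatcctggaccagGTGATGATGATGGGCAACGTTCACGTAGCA

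The libraries held between 19611788 and 21040590 expected counts. With 1 library per group there is no test and no replicate check, so no value below measures the spread between cultures. A fold is the ratio of CPM, with the exact 95% interval of counting error in brackets. A gene counts as past 2-fold where log2((CPM + 1)/(CPM + 1)) is beyond 1 in size. Seh1l, the targeted gene, had 11.0 CPM in iKO against 33.2 CPM in Ctrl at day 3, and 19.2 CPM in iKO against 40.3 CPM in Ctrl at day 0. All 11 neural stem and progenitor markers were above 0 in every library, with sums from 7165 to 10889 CPM. These markers did not move together. From day 0 to day 3 in Ctrl, Slc1a3 went from 1307 to 5788 CPM, whereas Nes went from 849 to 235 CPM and Vim from 2924 to 1125 CPM. The sums of microglial, endothelial and fibroblast or mural markers reached at most 16.8 CPM. In such bulk samples, fewer cells of a type and less RNA per cell cannot be told apart.

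Cdkn1a stood out in level. It had 291 FPKM (a level per transcript length, so that genes can be compared) in iKO against 23.0 FPKM in Ctrl at day 3, and 512 FPKM in iKO against 259 FPKM in Ctrl at day 0. It was the most abundant of the 7 in 3 of the 4 libraries. In Ctrl at day 3 it came after Cdkn1b at 57.8 FPKM (55.7–60.0) and Cdkn1c at 26.1 FPKM (24.5–27.8). There the intervals of Cdkn1a (21.5–24.6) and Cdkn2c (22.3 FPKM, 20.6–24.0) overlapped, and that of Cdkn1a also met that of Cdkn1c.

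Below Cdkn1a, the order of levels differed between libraries. In iKO at day 3 it ran Cdkn1b (40.2 FPKM), Cdkn2b (19.7), Cdkn2a (14.6), Cdkn2c (14.3), Cdkn2d (9.84) and Cdkn1c (2.82), and only the intervals of Cdkn2a and Cdkn2c overlapped among neighbours. In Ctrl at day 3, below Cdkn2c, it ran Cdkn2b (10.2 FPKM), Cdkn2d (9.30) and Cdkn2a (6), with overlap between Cdkn2b and Cdkn2d. Cdkn1c was thus the lowest of the 7 in iKO and the second highest in Ctrl at that day. In iKO at day 0 the order was Cdkn2c (47.7 FPKM), Cdkn1b (42.4), Cdkn2d (23.4), Cdkn2b (19.5), Cdkn2a (11.7) and Cdkn1c (3.20). In Ctrl at day 0 it was Cdkn2c (76.6 FPKM), Cdkn1b (51.7), Cdkn2d (34.7), Cdkn2a (14.3), Cdkn2b (10.8) and Cdkn1c (4.48). At day 0 no neighbours in either order had overlapping intervals, and these cover counting error alone.

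**Figure D1:**
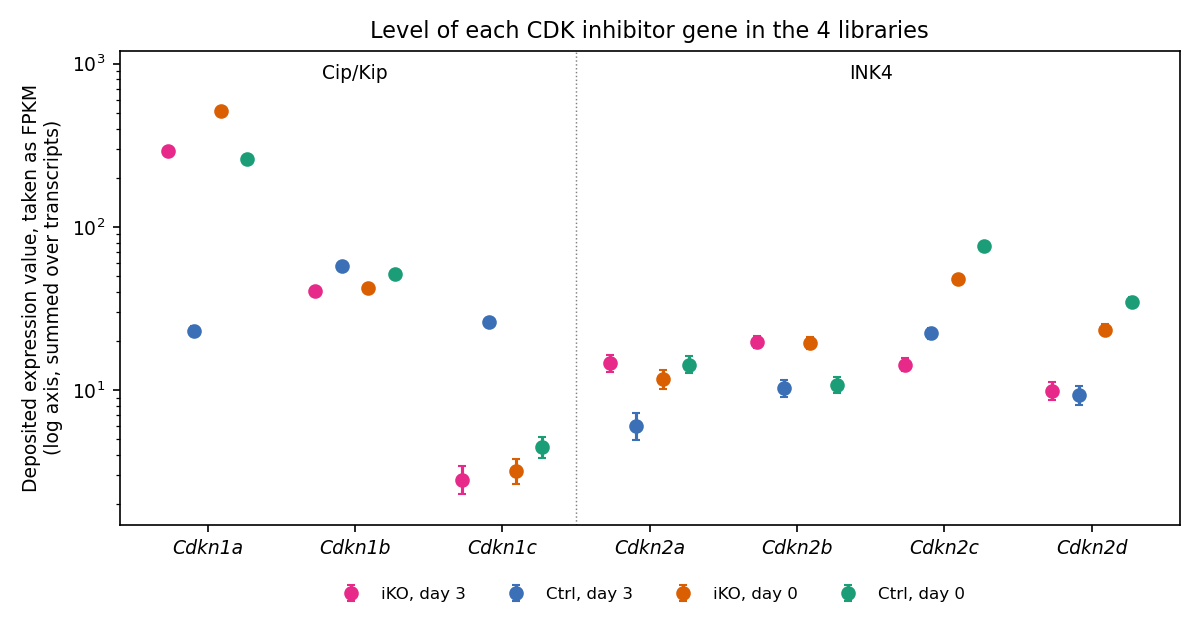
Deposited FPKM of the 7 CDK inhibitor genes in each of the 4 libraries, on a log axis, with 95% intervals of counting error. Cdkn1a lies highest in both iKO libraries and in Ctrl at day 0, and at 23.0 FPKM in Ctrl at day 3, near Cdkn1c and Cdkn2c.

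As a family, the 7 genes summed to 393 FPKM in iKO against 155 FPKM in Ctrl at day 3, and to 659 FPKM in iKO against 452 FPKM in Ctrl at day 0. Cdkn1a made up 74.2% of the sum in iKO and 14.9% in Ctrl at day 3, and 77.6% in iKO and 57.3% in Ctrl at day 0. Without it the order of genotypes turned: the other 6 summed to 102 FPKM in iKO against 132 FPKM in Ctrl at day 3, and to 148 FPKM in iKO against 193 FPKM in Ctrl at day 0.

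Between genotypes at day 3, 3 of the 7 genes were past 2-fold, where 11% of all genes were. Cdkn1a and Cdkn2a were higher in iKO, where 6.27% of genes were higher, and Cdkn1c was lower, where 4.76% were lower. Those shares are 813 higher and 618 lower genes, against 683 and 699 with library totals and 477 and 480 with deposited FPKM. The median log2 ratio of the 7 was 0.15, beside -0.01 over all genes. At day 0, 0 of the 7 were past 2-fold, where 3.01% of all genes were (2.67% higher and 0.331% lower), and their log2 ratios lay between -0.85 and 0.85 with a median of -0.41, beside -0.06 over all genes. With 1 library per group no p-value stands behind any of these counts.

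**Figure D2:**
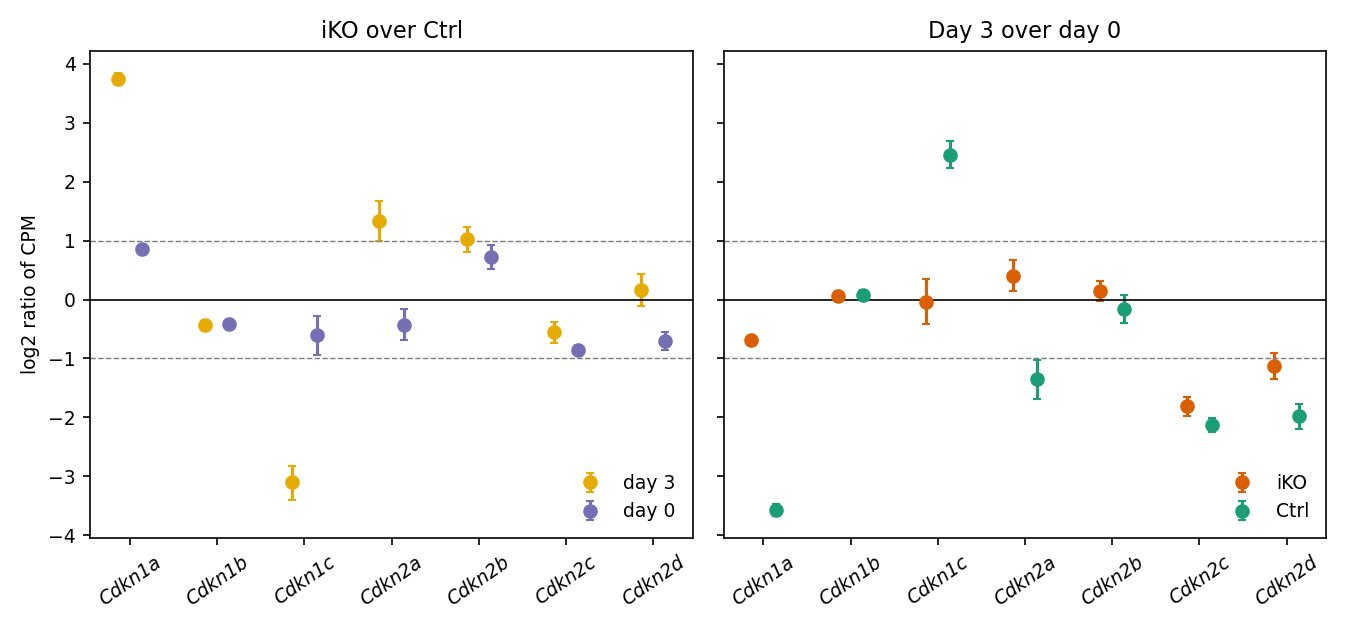
log2 ratio of CPM, without a pseudocount, of each CDK inhibitor gene for iKO over Ctrl at each day (left) and for day 3 over day 0 in each genotype (right), with 95% intervals of counting error and dashed lines at 2-fold. On the left, Cdkn1a (13.4-fold higher), Cdkn2a (2.51-fold higher), Cdkn2b (2.04-fold higher) and Cdkn1c (8.60-fold lower) lie past the lines at day 3 and none does at day 0. On the right, Cdkn1a and Cdkn1c lie far from 0 in Ctrl and nearer to it in iKO.

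Among the Cip/Kip genes, Cdkn1a, whose product p21 blocks CDK2 complexes after DNA damage and other stress, had 578 CPM in iKO and 43.1 CPM in Ctrl at day 3. It was 13.4-fold higher in iKO (12.5–14.4), the fifth highest log2 ratio of 12976 genes. At day 0 it had 926 CPM in iKO and 513 CPM in Ctrl, which was 1.81-fold higher (1.76–1.85). The Ctrl library at day 3 was thus the one that stood apart: its level was 11.9-fold lower (11.1–12.8) than in Ctrl at day 0, whereas iKO at day 3 was 1.60-fold lower (1.56–1.64) than iKO at day 0. The log2 ratio of iKO to Ctrl was 2.86 larger at day 3 than at day 0.

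Most Cdkn1a reads were assigned to the transcript of the downstream start, NM_007669.5, which begins 2.79 kb after that of the upstream start, NM_001111099.2. The models share their coding region of 477 bases, so the split rests on their first exons of 123 bases (upstream) and 93 bases (downstream). The p53 element shown above lies before both starts, and only the window of the upstream start reaches it. The upstream transcript had 1558 counts in iKO and 26 in Ctrl at day 3, and 2903 counts in iKO and 1298 in Ctrl at day 0. It was 63.9-fold higher in iKO at day 3 (43.4–98.1) and 2.09-fold higher at day 0 (1.95–2.23). The downstream transcript had 9347 counts in iKO and 840 in Ctrl at day 3, an 11.9-fold difference (11.0–12.7), and 17269 in iKO and 9125 in Ctrl at day 0, a 1.77-fold difference (1.72–1.81). Both transcripts were therefore higher in iKO on both days, the upstream one by the larger ratio. Its share of the gene's counts was 14.3% in iKO and 3.04% in Ctrl at day 3 (exact binomial 1.97–4.37%), and 14.4% in iKO and 12.5% in Ctrl at day 0. The intervals of transcripts and shares take the assigned counts as given. They leave out the error of assigning reads to a transcript, so they can be too narrow. GENCODE vM21 places a gene of unsettled type, AC167363.2, on the opposite strand over the downstream start, and the labels do not say whether counting used strand.

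**Figure D3:**
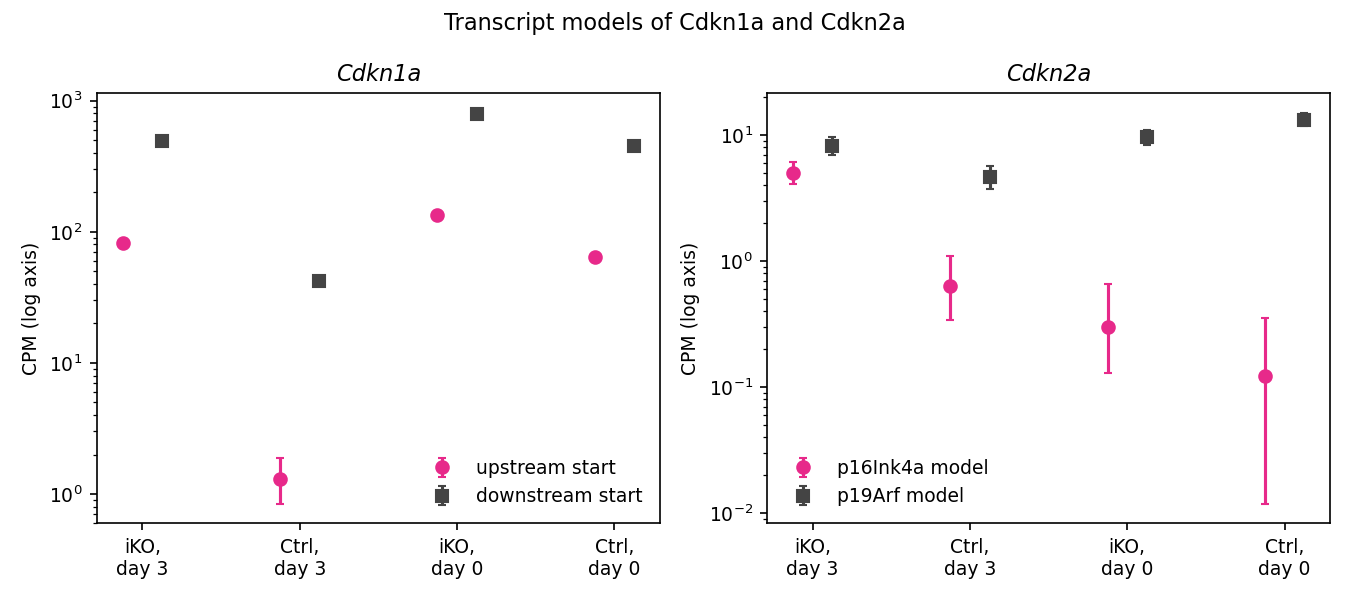
CPM of the transcript models of Cdkn1a (left) and Cdkn2a (right) in each of the 4 libraries, on log axes, with 95% intervals of counting error. The intervals leave out the error of assigning reads to models. The upstream Cdkn1a model is lowest in Ctrl at day 3 and the p16Ink4a model of Cdkn2a highest in iKO at day 3.

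Cdkn1b, whose product p27 binds cyclin E and CDK2 and builds up in resting cells, varied least of the 7. It had 101 CPM in iKO and 136 CPM in Ctrl at day 3, and 96.5 CPM in iKO and 129 CPM in Ctrl at day 0. It was lower in iKO by nearly the same ratio on both days, 1.36-fold at day 3 (1.28–1.44) and 1.34-fold at day 0 (1.26–1.42). Between days it differed little, by 1.04-fold in iKO (0.978–1.11) and 1.06-fold in Ctrl (1.00–1.12). Its product is known to be set largely by protein turnover. Between genotypes, 11% of all genes were past 2-fold at day 3 and 3.01% at day 0. Of 15 measured genes for the turnover of p21, p27 and p57, none was past 2-fold on either day. The largest among them were Skp2, the F-box protein that marks p27 for destruction, with 48.2 CPM in iKO and 89.3 CPM in Ctrl at day 0, and its cofactor Cks1b, with 45.2 CPM in iKO and 78.9 CPM in Ctrl at day 0.

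Cdkn1c, an imprinted gene whose product p57 is known in neural and other precursors that leave the cell cycle, had 5.72 CPM in iKO and 49.2 CPM in Ctrl at day 3. At day 0 it had 5.87 CPM in iKO and 8.95 CPM in Ctrl. It was 8.60-fold lower in iKO at day 3 (7.05–10.6), at rank 32 from the lowest of 12976 genes, and 1.52-fold lower at day 0 (1.21–1.93). Only the Ctrl library at day 3 was high: day 3 was 5.50-fold above day 0 in Ctrl (4.69–6.48) and 0.975 times day 0 in iKO (0.747–1.27). The log2 ratio of iKO to Ctrl was 2.37 lower at day 3 than at day 0 (a difference of -2.37).

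The reads of Cdkn1c were split among 7 transcript models, and the split is not read here. NM_001161624.1 and NM_009876.4 were listed at 0 in iKO at day 3, against 413 and 406 counts in Ctrl at day 3, while XM_006508469.3 had 53 counts in iKO against 24 in Ctrl. An exact 0 beside reads on near-identical models can be a failed estimate, so the gene sum was used. The antisense gene Gm44732 lies over Cdkn1c in GENCODE vM21, and its reads cannot be told apart here.

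Marker sums of cell types differed beside Cdkn1c at day 3. Neuron markers summed to 913 CPM in iKO and 1702 CPM in Ctrl. Most of each sum was Map2 (871 CPM in iKO and 1459 CPM in Ctrl), which was not past 2-fold. Of the 8 markers, 4 were more than 2-fold lower in iKO, where 4.76% of all genes were, and none was at 0. Syt1 (2.97 CPM in iKO and 1.44 CPM in Ctrl) and the low gene Stmn2 (0.583 and 0.0995 CPM) were higher in iKO. Oligodendrocyte lineage markers summed to 3442 CPM in iKO and 4720 CPM in Ctrl, most of it Olig1 (2717 and 2814 CPM). Of 8 such markers, 6 were more than 2-fold lower in iKO, beside 4.76% of all genes. At day 0, 4 of them were already past 2-fold lower, beside 0.331% of all genes. Astrocyte markers summed to 17305 CPM in iKO and 11238 CPM in Ctrl, most of it Apoe (12096 and 6765 CPM). Of these 8, 0 were past 2-fold at day 3, beside 11% of all genes, and Aldh1l1 and Aldoc were lower in iKO. At day 0, 3 of the 8 astrocyte markers were past 2-fold higher in iKO and 0 lower, beside 2.67% of all genes higher. Apoe had 656 CPM in iKO and 138 CPM in Ctrl there, Aqp4 48.4 and 20.6 CPM, and Gfap 17.1 and 3.93 CPM. Of the 8 neuron markers, 2 were past 2-fold higher in iKO at day 0 and 0 lower, the low genes Stmn2 and Neurod1. The part of these cell types in the Cdkn1c values was not tested.

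The INK4 family summed to 58.4 FPKM in iKO and 47.8 FPKM in Ctrl at day 3, and to 102 FPKM in iKO and 136 FPKM in Ctrl at day 0. Its members did not move together. Cdkn2a and Cdkn2b, neighbours 11.7 kb apart on chromosome 4, were higher in iKO at day 3, whereas Cdkn2c was lower in iKO on both days and Cdkn2d at day 0.

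Cdkn2a, whose p16Ink4a binds CDK4 and CDK6 and whose p19Arf restrains Mdm2, had 13.3 CPM in iKO and 5.27 CPM in Ctrl at day 3, and 10.0 CPM in iKO and 13.4 CPM in Ctrl at day 0. It was 2.51-fold higher in iKO at day 3 (1.99–3.18) and 1.34-fold lower at day 0 (1.12–1.61). As with Cdkn1a, Ctrl at day 3 was the low library, 2.55-fold below Ctrl at day 0 (2.03–3.22), while iKO at day 3 was 1.32-fold above iKO at day 0 (1.10–1.60). The call at day 3 did not hold with a pseudocount of 5 CPM, where the log2 ratio was 0.83.

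The p16Ink4a transcript had the larger ratio at day 3. It had 94.8 expected counts in iKO and 12.7 in Ctrl at day 3, and 6.61 in iKO and 2.49 in Ctrl at day 0. It was 7.79-fold higher in iKO at day 3 (4.34–15.2), and at day 0 the ratio of 3.27 had an interval that spans 1 (0.622–32.2). Within iKO it was 15.7-fold higher at day 3 than at day 0 (7.32–40.1). Per length it stayed the lesser product, at 5.85 FPKM beside 8.74 FPKM of p19Arf in iKO at day 3, and at 0.78 FPKM beside 5.22 FPKM in Ctrl at day 3. The p19Arf transcript had 155 counts in iKO and 93.3 in Ctrl at day 3, a 1.78-fold difference (1.36–2.32). At day 0 it had 211 counts in iKO and 271 in Ctrl, 1.38-fold lower in iKO (1.15–1.66). The p16Ink4a share of Cdkn2a counts was 37.9% in iKO (exact binomial 32.0–44.3%) and 12% in Ctrl (6.69–20.1%) at day 3, and 3.03% in iKO and 0.912% in Ctrl at day 0. Reads in the shared second exon do not tell the transcripts apart. As for Cdkn1a, the intervals of transcripts and shares leave out the error of assigning reads and can be too narrow.

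Cdkn2b, whose product p15 is known as a TGF-beta target, had 28.1 CPM in iKO and 13.8 CPM in Ctrl at day 3, and 25.4 CPM in iKO and 15.4 CPM in Ctrl at day 0. It was 2.04-fold higher in iKO at day 3 (1.76–2.36), just short of the threshold with the pseudocount at a log2 ratio of 0.97, and 1.65-fold higher at day 0 (1.43–1.90). Genotype separated the 4 libraries, and day did not: day 3 over day 0 was 1.11 in iKO (0.981–1.25) and 0.895 in Ctrl (0.759–1.06).

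Cdkn2c, whose product p18 is abundant in dividing precursors, had 23.2 CPM in iKO and 34.0 CPM in Ctrl at day 3, and 81.4 CPM in iKO and 148 CPM in Ctrl at day 0. It was 1.47-fold lower in iKO at day 3 (1.30–1.66) and 1.82-fold lower at day 0 (1.71–1.93), at rank 118 from the lowest of 12976 genes. Day differed more than genotype, with day 3 below day 0 by 3.52-fold in iKO (3.16–3.91) and 4.36-fold in Ctrl (4.01–4.74). The longer of its transcripts, NM_001301368.1, had 283 counts in iKO and 443 in Ctrl at day 3, and 1514 in iKO and 2701 in Ctrl at day 0. The shorter, NM_007671.3, starts 1.38 kb downstream with the same coding region, and its share of counts was 35.3% in iKO and 35.1% in Ctrl at day 3, and 14.7% in iKO and 10.3% in Ctrl at day 0.

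Cdkn2d, whose product p19Ink4d also binds CDK4 and CDK6, had 12.8 CPM in iKO and 11.4 CPM in Ctrl at day 3, and 27.8 CPM in iKO and 45.0 CPM in Ctrl at day 0. At day 3 the interval of its ratio spans 1 (1.12, 0.928–1.34), and at day 0 it was 1.62-fold lower in iKO (1.46–1.80). Day 3 was below day 0 by 2.17-fold in iKO (1.87–2.53) and by 3.93-fold in Ctrl (3.40–4.57).

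Proliferation genes are given beside Cdkn2c and Cdkn2d. At day 0, 15 of 15 such genes had log2 ratios below 0 in iKO, with a median of -0.77 beside -0.06 over all genes. However, 0 of the 15 were past 2-fold there, beside 3.01% of all genes. At day 3 the median of the 15 between genotypes was -0.10, with 6 of 15 above 0. From day 0 to day 3, 15 of 15 were past 2-fold lower in both genotypes, where 11.4% of all genes were in iKO and 15.1% in Ctrl. Medians of the 15 were -3.54 in iKO and -4.17 in Ctrl, beside -0.01 and -0.02 over all genes. The part of proliferation in the values of Cdkn2c and Cdkn2d was not tested.

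Across days, 2 of the 7 genes were past 2-fold in iKO, Cdkn2c and Cdkn2d, where 22.7% of all genes were. In Ctrl, 5 of the 7 were, where 29.7% of all genes were: Cdkn1c was higher at day 3, and Cdkn1a, Cdkn2a, Cdkn2c and Cdkn2d were lower. The 2 comparisons use different libraries, and the difference of their log2 ratios was at least 1 in size for Cdkn1a (2.86), Cdkn2a (1.57) and Cdkn1c (-2.37), 3 of 7 genes where 9.22% of all genes passed (3.71% higher and 5.5% lower). Over all genes this difference was higher for 482 and lower for 714, against 298 and 960 when libraries were scaled by their totals, and 219 and 617 with the deposited FPKM.

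The authors' deposited table for day 3 lists 1774 genes, of which the smallest log2 ratio is 1 in size, and holds 3 of the 7. The authors' deposited table gives Cdkn1a a log2 ratio of 3.66, Cdkn2a one of 1.28 and Cdkn1c one of -3.21. The authors' deposited table for day 0 lists 103 genes and 0 of the 7. Each of those tables compares 2 libraries.

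Of the kinases and cyclins that the inhibitors act on, 2 of 11 were past 2-fold higher in iKO at day 3 and 0 lower, where 6.27% of all genes were higher, with a median log2 ratio of 0.08. Ccnd2, a D cyclin, had 1127 CPM in iKO and 315 CPM in Ctrl at day 3, 3.58-fold higher, and Ccnd1 had 312 CPM in iKO and 154 CPM in Ctrl, 2.02-fold higher. Ccnd1 was just past the threshold at a log2 ratio of 1.01 and fell short of it with library totals (0.93), deposited FPKM (0.92) and a pseudocount of 5 CPM (0.99). Their partner Cdk4 had 203 CPM in iKO and 372 CPM in Ctrl at day 3. At day 0 none of the 11 was past 2-fold, beside 3.01% of all genes, and their median was -0.46. Ccna2 was nearest with 262 CPM in iKO and 507 CPM in Ctrl. Summed over the 11 genes, cyclins and CDKs stood at 478 FPKM in iKO and 453 FPKM in Ctrl at day 3, and at 1997 FPKM in iKO and 1976 FPKM in Ctrl at day 0. Per FPKM of CDK inhibitor that was 1.22 in iKO and 2.93 in Ctrl at day 3, and 3.03 in iKO and 4.37 in Ctrl at day 0. Without Cdkn1a in the sum of inhibitors the order of genotypes turned on both days. The ratio was then 4.71 in iKO and 3.44 in Ctrl at day 3, and 13.5 in iKO and 10.3 in Ctrl at day 0. The sums weigh abundant genes most, so the turn describes the sum and not each gene. They are sums of deposited FPKM, without the TMM scaling. Deposited FPKM moved the median log2 ratio of all genes by 0.11 at day 0, so the order of 1997 and 1976 FPKM is not read. Ccnd1 had 888 FPKM in iKO and 679 in Ctrl at day 0, and Ccnd2 351 and 280, while 9 of the 11 had log2 ratios below 0. At day 3 Ccnd2 had 181 FPKM in iKO and 53.6 in Ctrl, and Cdk4 148 and 287, with 5 of the 11 below 0. In the RB and E2F list, downstream of the CDKs, 1 of 10 genes was past 2-fold lower in iKO at day 0, beside 0.331% of all genes. At day 3, 0 of the 10 were past 2-fold, beside 11% of all genes. The 1 gene was E2f2, with 24.0 CPM in iKO and 49.1 CPM in Ctrl at day 0. Its log2 ratio lay at the threshold, and the call was lost with library totals (-0.88), deposited FPKM (-0.78) and a pseudocount of 5 CPM (-0.90).

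**Figure D4:**
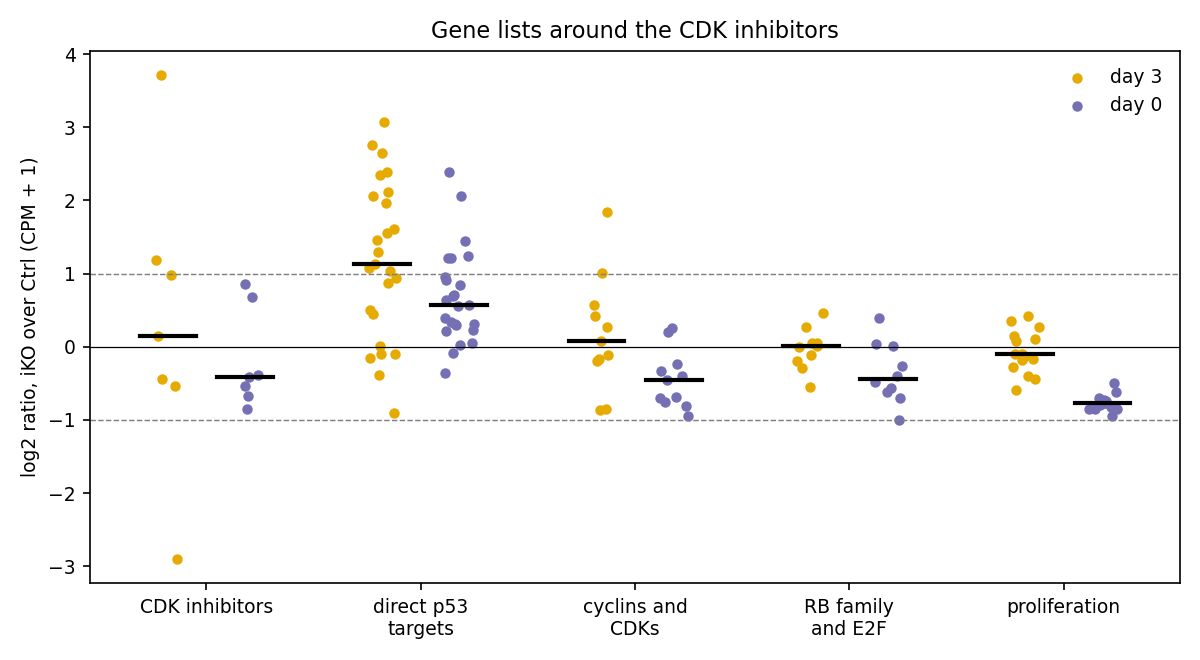
log2 ratio of CPM + 1, iKO over Ctrl, for each gene of 5 lists at day 3 and at day 0, with bars at the list medians and dashed lines at 2-fold. The p53 targets have a median of 1.13 at day 3 and 0.57 at day 0, and the proliferation genes a median of -0.77 at day 0.

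Of 25 direct p53 targets other than Cdkn1a, 15 were past 2-fold higher in iKO at day 3 and 0 past 2-fold lower, where 6.27% of all genes were higher and 4.76% lower. Their median log2 ratio was 1.13, with 20 above 0 and 5 below, among them Trp53i11 with 27.1 CPM in iKO and 51.5 CPM in Ctrl. At day 0, 6 were past 2-fold higher and 0 lower, where 2.67% of all genes were higher and 0.331% lower, and the median was 0.57, with 23 above 0 and 2 below. Pmaip1, which encodes the cell death protein Noxa, had 49.7 CPM in iKO and 5.02 CPM in Ctrl at day 3, and 67.7 CPM in iKO and 24.2 CPM in Ctrl at day 0. The death receptor gene Fas had 23.0 CPM in iKO and 2.54 CPM in Ctrl at day 3, and 22.5 CPM in iKO and 4.62 CPM in Ctrl at day 0. Trp53 itself, which encodes p53, had 67.4 CPM in iKO and 81.5 CPM in Ctrl at day 3, and 139 CPM in iKO and 179 CPM in Ctrl at day 0.

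Among 31 measured genes for transcriptional regulators of CDK inhibitor genes, 4 were past 2-fold higher and 2 lower in iKO at day 3, beside 6.27% and 4.76% of all genes. Their median log2 ratio was -0.26. Klf4, an activator of Cdkn1a, had 12.8 CPM in iKO and 2.24 CPM in Ctrl at day 3, and 11.2 CPM in iKO and 4.48 CPM in Ctrl at day 0. It was the 1 gene of the 31 past 2-fold at day 0 (log2 ratio 1.15), beside 3.01% of all genes. That call was lost with a pseudocount of 5 CPM (0.77), and with no minimum the low gene Trp73 passed as well (1.08). Id1, known for repression of Cdkn2a, had 69.3 CPM in iKO and 18.2 CPM in Ctrl at day 3. Smad3, which carries TGF-beta signals to Cdkn2b and Cdkn1a, had 99.5 CPM in iKO and 34.0 CPM in Ctrl at day 3. Mdm2, which restrains p53 and is also a p53 target, had 148 CPM in iKO and 69.6 CPM in Ctrl at day 3. The 2 lower genes were Ets1, with 16.8 CPM in iKO and 38.0 CPM in Ctrl at day 3, and Mycn, with 0.318 CPM in iKO and 2.39 CPM in Ctrl. With a pseudocount of 5 CPM neither was past 2-fold (-0.98 for Ets1 and -0.47 for Mycn), and with deposited FPKM neither Mycn (-0.79) nor Mdm2 (0.99) was. Of the Polycomb genes, Cbx2 had 10.2 CPM in iKO and 21.2 CPM in Ctrl at day 3, Ezh2 26.3 CPM in iKO and 50.8 CPM in Ctrl, and Bmi1 79.9 CPM in iKO and 123 CPM in Ctrl. None was past the threshold, but Cbx2 (log2 ratio -0.99) and Ezh2 (-0.92) lay near it: Cbx2 passed with library totals (-1.07) and a pseudocount of 0.1 CPM (-1.05), and Ezh2 narrowly with library totals. On the higher side at day 3, Foxo1 had 75.1 CPM in iKO and 38.7 CPM in Ctrl (log2 ratio 0.94). Foxo3 had 288 CPM in iKO and 156 CPM in Ctrl (0.88), so these also lay near the threshold.

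The nearest measured neighbours of these genes had values of their own. Srsf3, 47.6 kb from Cdkn1a, had a log2 ratio of iKO to Ctrl of -0.61 at day 3. Ppil1, 150 kb away on the other side, had one of -0.16. Around Cdkn1c, Tssc4 at a distance of 387 kb had 0.71 and Nap1l4 at 52.5 kb had 0.14 at day 3. Of 19 genes listed for the imprinted region around Cdkn1c on chromosome 7, 15 were in the data and 8 reached the minimum. The list spans a region that was not divided into imprinting domains. Of these 8, 2 were past 2-fold higher in iKO at day 3 and 0 lower, where 6.27% of all genes were higher. They were Igf2 with 3.87 CPM in iKO and 1.34 CPM in Ctrl, and Osbpl5 with 110 CPM in iKO and 41.6 CPM in Ctrl. Igf2, at a log2 ratio of 1.06, fell short with library totals (0.996), deposited FPKM (0.56) and a pseudocount of 5 CPM (0.48), and it did not reach a minimum of 5 CPM. It was also the 1 gene of the 8 past 2-fold at day 0, where 2.67% of all genes were higher. There it had 7.89 CPM in iKO and 1.77 CPM in Ctrl, a log2 ratio of 1.68. That call held with library totals (1.78) and deposited FPKM (1.35) but not with a pseudocount of 5 CPM (0.93). Around the Cdkn2a and Cdkn2b pair, Mtap, 93.4 kb from Cdkn2a, had -0.06 at day 3. The low gene Dmrta1, 377 kb from Cdkn2b, had -1.88.

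The genes whose profile over the 4 libraries was most like each CDK inhibitor were taken by the root mean square difference of centred log2(CPM + 1). For Cdkn1a these were Psrc1 (0.32), Dglucy (0.40) and Pidd1 (0.45). The Cdkn1c profile was nearest to those of Dcc (0.07), Gal3st1 (0.10) and Dscaml1 (0.10), and that of Cdkn2a to Idh2 (0.03), Gm6958 (0.05) and Cdc42ep1 (0.08). Nearest to Cdkn2c were Nup210 (0.04), Vars (0.06) and Lrrn4 (0.08), to Cdkn2d Cep135 (0.01), Gins3 (0.05) and Egfl7 (0.05), to Cdkn2b Gm42372 (0.03), Kctd11 (0.04) and Tmem38a (0.06), and to Cdkn1b Acaca (0.02), Tmtc2 (0.03) and Msl1 (0.03). The pseudocount of 1 CPM makes low genes look nearer than their CPM ratios would. Lrrn4, for example, had 5.75 CPM in Ctrl at day 0 and 0.159 CPM in iKO at day 3. Egfl7 had 3.54 CPM in Ctrl at day 0 and 0.348 CPM in Ctrl at day 3. With 4 libraries such likeness is a description.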

How the data were processed

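RNA-seq libraries of 4 groups, 1 per group, were used, grouped by the genotype, treatment and title labels. Per the submitters' processing notes, HISAT, Bowtie2, StringTie and mm10 were used; versions, roles, the counting tool and its use of strand were not stated there. The authors deposited an expected count per RefSeq transcript (decimals) and an expression value whose unit the header does not name; it was taken as deposited FPKM because it is nearly proportional to count over length. The authors' deposited tables hold log2 ratios and FDR (adjusted p-value) per the file headers; the FDR compares 2 libraries and is not printed.

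Expected counts were summed per gene and rounded. CPM used TMM effective library sizes (edgeR 4.0.16, R 4.3.3; factors 0.962 in iKO and 1.02 in Ctrl at day 3, 1.06 in iKO and 0.966 in Ctrl at day 0). Comparisons took genes whose mean reached 1 CPM, and the pseudocount of 1 CPM understates ratios of low genes. Ratio intervals are exact (Clopper-Pearson, scipy 1.17.1) and, like those of shares and FPKM, cover counting error only, since reads are not independent molecules. Those of transcripts and of shares also leave out the error of assigning reads to transcripts. Interval code was tested on simulated data. Symbols came from RefSeq (GRCm38.p6), and transcript structures from GENCODE vM21 (GRCm38, the build of mm10).

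The 7 genes, the lists, the comparisons and the motifs were chosen with earlier results of these data known. Named genes are the 7, their neighbours and nearest profiles, and, per list, the 2 largest ratios at each day and any past 2-fold. A part of these is given values, as are a few list members outside the rule (Trp53, Bmi1, Ezh2, Foxo1, Foxo3, Cdk4 and Trp53i11). Alternatives were other pseudocounts, minimums and scalings.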

Additional observations from a re-analysis of the deposited data

Results flagged for a closer look

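The values here had opposite signs in 2 groups under the same contrast, and the differences were not tested. All are log2 ratios with 1 library per group. For Cdkn1c, day 3 over day 0 was -0.031 in iKO and 2.34 in Ctrl. For Cdkn2a, day 3 over day 0 was 0.37 in iKO and -1.20 in Ctrl, and iKO over Ctrl was 1.18 at day 3 and -0.39 at day 0. For Cdkn2d, iKO over Ctrl was 0.15 at day 3 and -0.68 at day 0. For Cdkn2b, day 3 over day 0 was 0.14 in iKO and -0.15 in Ctrl. The counting intervals of both Cdkn2b ratios, of Cdkn1c in iKO and of Cdkn2d at day 3 included 1, so the sign of those 4 is within counting error. Cdkn2a alone had both ratios of a pair outside counting error, in both contrasts.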

How the results depend on the processing

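Of 35 ratios of the 7 genes, 34 kept their side of 0 under all 8 settings and 31 their side of 2-fold; the exception in sign was Cdkn1b, day 3 over day 0 in iKO (0.06, from -0.08 to 0.07). The 4 that crossed 2-fold were Cdkn2a at day 3 (1.18, from 0.83 to 1.31), Cdkn2a over days in Ctrl (-1.20, from -1.33 to -0.84), Cdkn2b at day 3 (0.97, from 0.82 to 1.02) and Cdkn2d over days in iKO (-1.06, from -1.19 to -0.88). With a pseudocount of 5 CPM, all genes past 2-fold numbered 124 at day 0 (against 390), 788 at day 3 (against 1431) and 597 for the difference between days (against 1196), and 1 of the 7 passed over days in iKO (against 2). With 0.1 CPM, 786 genes passed at day 0. A larger pseudocount shrinks the ratios of low genes by construction. Library totals moved the median of all genes by 0.12 at day 0, -0.13 over days in iKO and -0.20 for the difference, and deposited FPKM by 0.11, -0.12 and -0.17. With deposited FPKM, over days in iKO, 932 genes were higher and 1474 lower, against 1459 and 1485.

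Depth limits the p16Ink4a transcript at day 0 (6.61 expected counts in iKO and 2.49 in Ctrl) and the Cdkn1c models listed at 0. No paired analysis was possible because each group has 1 library.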

Other observations

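Imprinted growth genes outside the list for the Cdkn1c region were examined beside Cdkn1c. At day 3, 2 of 15 measured were past 2-fold higher in iKO and 3 past 2-fold lower, beside 6.27% and 4.76% of all genes, and the median log2 ratio was 0.19, beside -0.01 over all genes. Mest had 546 CPM in iKO and 161 CPM in Ctrl, and Zim1 had 8.22 CPM in iKO and 3.58 CPM in Ctrl. Nnat, a neuronal membrane protein gene, had 422 CPM in iKO and 1503 CPM in Ctrl. Grb10, a growth factor signalling adaptor, had 0.636 CPM in iKO and 3.03 CPM in Ctrl, and Usp29 had 1.33 CPM in iKO and 5.62 CPM in Ctrl. The calls of Zim1 (log2 ratio 0.62), Grb10 (-0.51) and Usp29 (-0.75) were lost with a pseudocount of 5 CPM, and those of the same 3 with deposited FPKM. That of Zim1 was also lost with library totals (0.94). At day 0, 0 of the 15 were past 2-fold, beside 3.01% of all genes, and Zim1 passed with a pseudocount of 0.1 CPM (1.08).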
